A study of Mus musculus with 46 samples.

Results

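Hnf4α (hepatocyte nuclear factor 4 alpha) loci found on the carbohydrate-rich diet only are described here. Peaks of 4 Hnf4α ChIP-seq libraries of mouse liver, 2 per diet, were merged where they overlapped, which gave 70756 loci. A locus was kept as CD-only when it held a peak in both libraries of the carbohydrate-rich diet (CD) and in neither library of the lipid-rich diet (LD). There were 1816 such loci among the 28944 loci with a peak in both CD libraries. For comparison, 3432 loci were LD-only, 23344 were shared by all 4 libraries, and 45851 had a peak in at least 2 libraries and served as background. The loci were chosen by the presence of called Hnf4α peaks in these 4 lists, so that Hnf4α presence and height at them are descriptions and were not tested.

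All mice were male C57BL/6, arrived at 5 weeks of age and ate their diet for 20 weeks. CD, which the labels call low fat diet, drew 70% of its energy from carbohydrate and 10% from lipid, and LD, the high fat diet of the labels, drew 20% from carbohydrate and 60% from lipid, at equal protein content. Whole liver was used, and the labels name no sorting of cells, transgene or deletion. Beside Hnf4α (2 mice per diet), C/EBPα ChIP-seq (2 per diet), H3K27ac ChIP-seq (3 per diet), RNA-seq (5 per diet) and promoter capture Hi-C (2 per diet, pooled by the authors) are used. The comparison asks at which loci Hnf4α was detected only on CD, and what chromatin and nearby transcripts were measured there. The labels do not say which libraries came from the same mouse. They give each of the 4 Hnf4α libraries a different antibody catalogue number, and these numbers run in sequence. The study's methods name a single antibody for Hnf4α. If the labels held, antibody and diet could not be told apart.

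Hnf4α is a nuclear receptor that binds DNA as a homodimer at direct repeats and is required for the identity of hepatocytes. Its known targets in liver code for apolipoproteins, clotting factors and enzymes of bile acid, amino acid, glucose and drug metabolism. C/EBPα is a bZIP factor of hepatocytes that often lies at the same enhancers, and H3K27ac is an acetylation of histone H3 found at active promoters and enhancers.

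To show what the loci look like as DNA, 200 bp around the centre of the CD replicate 1 peak are given for 9 of them, in mm9 on the + strand. Capitals mark exact matches, on either strand, to the searched strings CAAAGTCCA and CAAAGGTCA (Hnf4 and direct-repeat type), TGTTTAC (Fox), GGGCGG (Sp), CCGGAAG (ETS), and ATTGCGCAA with its core TTGCGCAA (C/EBP), the shorter lying inside the longer.
Ppara locus, chr15:85601833-85602032: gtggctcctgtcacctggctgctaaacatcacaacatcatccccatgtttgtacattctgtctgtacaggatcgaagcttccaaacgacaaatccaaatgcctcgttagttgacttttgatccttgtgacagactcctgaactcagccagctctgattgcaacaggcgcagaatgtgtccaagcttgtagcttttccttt
Map2k6 locus, chr11:110241032-110241231: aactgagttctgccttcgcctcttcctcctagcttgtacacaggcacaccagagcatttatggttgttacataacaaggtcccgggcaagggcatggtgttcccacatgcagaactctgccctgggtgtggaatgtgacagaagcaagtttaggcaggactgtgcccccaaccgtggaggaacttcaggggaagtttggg
Uox locus, chr3:146243083-146243282: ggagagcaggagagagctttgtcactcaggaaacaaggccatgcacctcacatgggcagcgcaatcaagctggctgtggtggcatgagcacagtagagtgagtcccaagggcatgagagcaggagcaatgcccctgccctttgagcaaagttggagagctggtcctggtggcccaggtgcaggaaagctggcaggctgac
Tmem19 locus, chr10:114795673-114795872: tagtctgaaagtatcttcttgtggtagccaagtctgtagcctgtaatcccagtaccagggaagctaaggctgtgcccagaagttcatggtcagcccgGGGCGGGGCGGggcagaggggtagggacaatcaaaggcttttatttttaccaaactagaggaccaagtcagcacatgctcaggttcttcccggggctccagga
Hsd3b5 locus, chr3:98474522-98474721: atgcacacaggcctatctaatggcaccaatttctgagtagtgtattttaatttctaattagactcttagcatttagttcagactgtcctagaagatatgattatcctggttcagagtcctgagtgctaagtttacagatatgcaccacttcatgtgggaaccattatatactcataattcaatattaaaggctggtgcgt
Slc16a5 locus, chr11:115318828-115319027: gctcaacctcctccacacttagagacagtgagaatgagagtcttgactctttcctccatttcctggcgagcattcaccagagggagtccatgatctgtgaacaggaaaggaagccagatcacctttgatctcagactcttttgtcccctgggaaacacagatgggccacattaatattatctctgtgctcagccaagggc
Ctse locus, chr1:133515700-133515899: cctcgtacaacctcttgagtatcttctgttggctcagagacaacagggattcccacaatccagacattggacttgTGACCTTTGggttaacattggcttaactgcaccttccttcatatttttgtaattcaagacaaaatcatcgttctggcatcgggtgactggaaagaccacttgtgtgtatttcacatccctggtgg
Igfbp2 locus, chr1:72870697-72870896: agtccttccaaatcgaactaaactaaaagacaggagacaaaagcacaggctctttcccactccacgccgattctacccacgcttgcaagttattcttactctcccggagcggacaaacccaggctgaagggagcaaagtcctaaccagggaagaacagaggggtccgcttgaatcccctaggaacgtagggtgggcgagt
Arhgap11a locus, chr2:113688959-113689158: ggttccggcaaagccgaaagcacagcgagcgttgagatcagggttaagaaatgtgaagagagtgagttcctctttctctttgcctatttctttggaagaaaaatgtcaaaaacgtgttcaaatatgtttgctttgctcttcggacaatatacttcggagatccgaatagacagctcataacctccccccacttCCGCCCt
The Ppara, Map2k6, Uox and Tmem19 windows lie at loci among the 8 with the highest peaks. The Hsd3b5, Slc16a5 and Ctse windows lie at loci whose nearest gene is among the 8 largest rises or the 8 largest falls in RNA described further on. The Igfbp2 and Arhgap11a windows lie upstream of a start site and were chosen after their values were seen, to show sequence close to a promoter. The Tmem19 window holds 2 overlapping matches to GGGCGG, and the Arhgap11a window holds 1 on the − strand. The Ctse window has 1 match to CAAAGGTCA on the − strand. The other 6 windows hold none of these letters, which says nothing about the factors themselves. The 2 upstream windows hold 9 CpG each, whereas the 7 others hold between 1 and 4.

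The peaks at the CD-only loci were low, as were those at the LD-only loci. Heights are tags scaled to 10000000 tags of a library, as the HOMER peak caller reports them. In CD replicate 1, heights at the 1816 loci ran from 3.75 to 77.5 with a median of 9.5, and in CD replicate 2 from 3.75 to 193.8 with a median of 15.8. At shared loci the medians were 21.5 and 42.8 in the same libraries, and at LD-only loci 9.75 and 10.5 in the LD libraries. The median fold over the input was 6.6 and 7.78 at the CD-only loci, against 11.0 and 19.4 at shared loci and, in the LD libraries, 7.5 and 7.33 at LD-only loci. Just inside the threshold, 158 loci had a lower CD height under 5, while 872 had 10 or more and 165 had 20 or more. Just outside it, 3784 loci had peaks in both CD libraries and in exactly 1 LD library, with an LD height of 3.5 to 116.8 and a median of 15.2. The lists hold no LD signal under the calling limit, so that absence here means that no LD peak was called.

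The libraries differed among themselves. CD replicate 1 had the fewest peaks, 35143, against 44247 to 47992 in the other 3, and the lowest heights at shared loci, where the LD medians were 35.8 and 33.5. Of the CD-only loci, 92.2% were higher in CD replicate 2 than in CD replicate 1, as were 98.4% of the shared loci. Heights in the 2 CD libraries rose together over the 1816 loci (Spearman rank correlation 0.86, a description over loci that share the same libraries). Leaving out any Hnf4α library loosened the rule and gave 3358 to 9560 loci, the most without CD replicate 1.

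**Figure D1:**
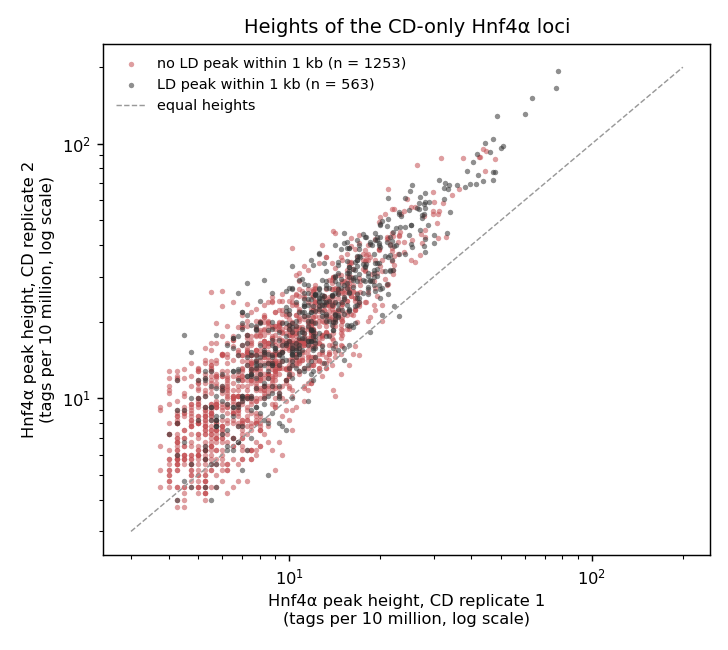
Height of the Hnf4α peak in CD replicate 1 (x axis) and CD replicate 2 (y axis) at each of the 1816 CD-only loci, in scaled tags on log axes, coloured by whether an LD peak lies near the locus without overlapping it; the dashed line marks equal heights. Most points lie above the line, and the loci with an LD peak nearby reach further up.

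The highest CD-only peaks stood beside LD peaks that did not overlap them. In all, 343 loci (18.9%) had an LD peak within 500 bp, with a median gap of 211 bp and a median LD height of 19.5, and 563 loci (31.0%) had it within 1 kb. This share grew with height, from 10.8% of loci with a lower CD height under 5, through 22.0% from 5 to under 10 and 39% from 10 to under 20, to 58.8% at 20 or more. Among LD-only loci, 14.8% had a CD peak within 1 kb. The remaining 1253 CD-only loci had no LD peak within 1 kb and are called isolated here, a class defined after the data were seen.

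All 8 of the highest loci belong to the group beside LD peaks. The highest lay in an intron 35.8 kb from the start site of Ppara, the lipid-sensing nuclear receptor that drives fatty acid oxidation genes, with heights of 77.5 and 193.8. An LD peak of height 96.5 lay 199 bp away, and C/EBPα had a peak there in both LD libraries and in neither CD library. The Map2k6 locus, 19.2 kb upstream of a gene for a MAP kinase kinase, had heights of 76.2 and 165.0 and an LD peak of 118.5 at 129 bp. At Uox, which codes for the urate-degrading enzyme urate oxidase, the heights were 60.2 and 131.2, with an LD peak of 75.5 at 103 bp.

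In each of these 3 cases CD and LD libraries both had an Hnf4α peak in the neighbourhood, at different called positions. The same held for the other 5. The Fam50b locus (63.5 and 151.5) had an LD peak of 117.0 at 177 bp, and the Dbi locus (51 and 98.2), near the gene for acyl-CoA-binding protein, had an LD peak of 68.2 at 15 bp. The Cyp2d13 locus (50.2 and 96.2) overlapped the start site of a cytochrome P450 gene, with an LD peak of 111.5 at 282 bp. The Ces1d locus (48.8 and 128.2) overlapped the start site of a carboxylesterase gene, with an LD peak of 84.5 at 193 bp. The Tmem19 locus (48.0 and 77.5) had an LD peak of 213.8 at 333 bp. Whether the CD and LD peaks of such a pair are separate sites was not tested.

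The 8 highest isolated loci, named after their values were seen, had lower CD heights of 36.5 to 47.8. The 5033403H07Rik locus had heights of 47.8 and 87.2, with a C/EBPα peak in all 4 libraries. The Sec14l2 locus (44.8 and 93.5), 1.02 kb from a start site, lay 4.3 kb from the nearest LD peak. The Cpt1a locus (42.5 and 88.5) lay 0.628 kb downstream of the start site of the gene for the enzyme that admits long-chain fatty acids to mitochondria. The Cxcl12 locus (37.5 and 88.0) and the Pim3 locus (36.5 and 66.2) lay 39 bp and 192 bp from the start sites of a chemokine gene and a kinase gene. The Onecut2 (44.5 and 78.5), Mir2139 (42.8 and 88.5) and Cdpf1 (43.8 and 95.2) loci lay further out, the last of them at chr15:85604943-85605169, close to the Ppara locus shown above. All 8 had an H3K27ac peak in all 6 libraries.

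The CD-only loci lay nearer to start sites than other Hnf4α loci. Of the 1816, 573 (31.6%, 95% Wilson interval 29.5 to 33.7) lay within 1 kb of the TSS of a RefSeq gene row of the counts table. The share was 8.57% (7.68 to 9.55) of LD-only loci, 12.9% (12.5 to 13.4) of shared loci and 14.4% of the background. The intervals cover counting error only, and positions were measured in 2 libraries per diet with no test between diets. The TSS itself lay inside 241 CD-only loci (13.3%), against 2.16% of LD-only and 4.07% of shared loci. The median distance to the nearest TSS was 9.86 kb, against 24.62 kb and 19.03 kb.

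The excess was present at isolated loci, 28.3% of which lay within 1 kb (25.9 to 30.9), against 6.05% of LD-only loci with no CD peak within 1 kb. It was not carried by the lowest peaks. Only 6.33% of loci with a lower CD height under 5 lay within 1 kb, compared with 24.0% from 5 to under 10, 44.0% from 10 to under 20 and 38.2% at 20 or more. Loci within 1 kb had median heights of 11.8 and 18, and those beyond it 8.25 and 14.5. The fold over input showed the reverse order, with medians of 6.09 and 6.6 within 1 kb and 6.83 and 8.5 beyond. By GENCODE M1, a fuller set of start sites, 37.1% lay within 1 kb of a TSS, 33.5% in introns, 27.2% between genes and 0.936% in coding exons.

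**Figure D2:**
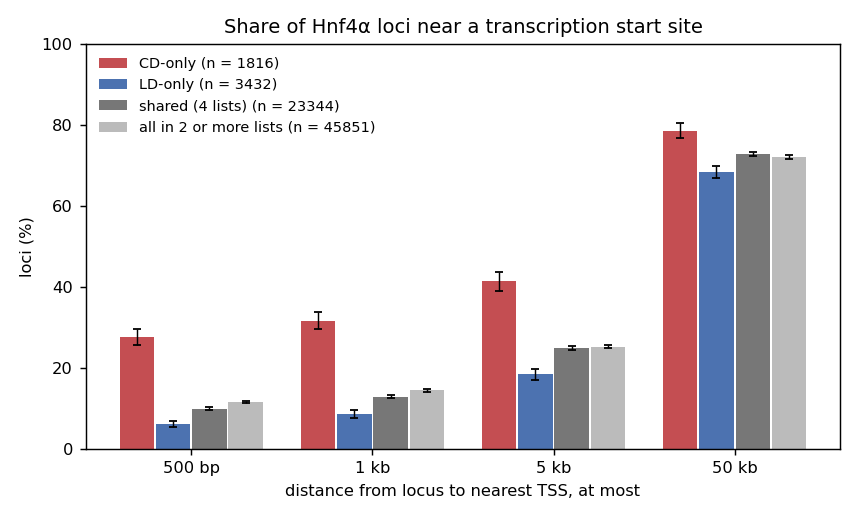
Share of Hnf4α loci (y axis, %) whose nearest RefSeq TSS lies within each distance (x axis), for CD-only, LD-only, shared and background loci; bars start at 0 and the whiskers are 95% Wilson intervals. Within 1 kb the CD-only bar stands at 31.6% and the LD-only bar at 8.57%.

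CpG-rich sequence was more frequent at the CD-only loci. In the central 200 bp, 29.0% of 1815 CD-only loci had 10 or more CpG, against 5.95% of LD-only, 8.16% of shared and 10.5% of background loci. The CD-only share was the highest of these at both positions. Within 1 kb of a TSS, 76.7% of the CD-only loci had 10 or more CpG (85.6% of the isolated loci), against 50.3% of LD-only, 49.9% of shared and 59.1% of background loci. Beyond 1 kb the shares were 7.0%, 1.79%, 1.95% and 2.28%. Median GC content was 50% at the CD-only loci, 65.5% at those within 1 kb and 46.5% at those beyond.

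Short strings of known binding classes were counted in the same windows, as a description of letters and not of binding. GGGCGG was found in 20.8% of CD-only loci and in 6.03%, 8.59% and 9.76% of LD-only, shared and background loci. CCGGAAG was found in 4.46%, against 1.75%, 1.64% and 2.04%. Either Hnf4 string was found in 5.07% of CD-only loci, against 7.61%, 10.3% and 8.59%. For CAAAGTCCA alone the share was 2.09%, against 5.19%, 6.41% and 5.11%, whereas for CAAAGGTCA it was 3.03%, against 2.42%, 3.95% and 3.54%.

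The strings of GC-rich promoters were thus more frequent, and the Hnf4 string CAAAGTCCA less frequent, than at the other classes of locus. Within 1 kb of a TSS, 49.3% of the CD-only loci held GGGCGG and 1.57% held either Hnf4 string, against 40.1% and 4.04% of the background. Beyond 1 kb, 6.68% held either Hnf4 string, against 8.04% of LD-only and 10.9% of shared loci, although CAAAGGTCA alone was found there in 4.1%, against 2.58% and 4.23%. TGTTTAC was found in 4.52% of CD-only and 5.82% of background loci, TTGCGCAA in 0.275% and 0.271%, and ATTGCGCAA in 0.11% and 0.129%.

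**Figure D3:**
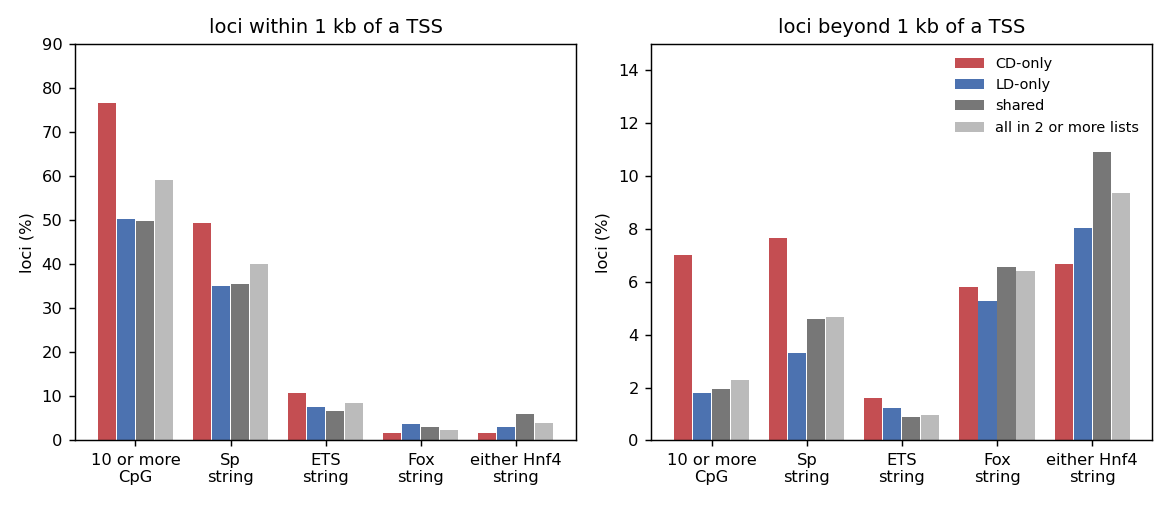
Share of loci (y axis, %) whose central 200 bp hold 10 or more CpG or a searched string, for loci within 1 kb of a TSS (left) and beyond 1 kb (right), by class of locus; the 2 panels have different y scales. CD-only loci have the tallest CpG, Sp and ETS bars in both panels and the shortest bar for either Hnf4 string.

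Most CD-only loci carried H3K27ac on both diets. A peak of H3K27ac overlapped 76.7%, 78.1% and 77.1% of them in the 3 CD libraries and 75.9%, 75.2% and 72.9% in the 3 LD libraries. The means were 77.3 ± 0.71% and 74.7 ± 1.57% (SD, n = 3 mice each), a difference of 2.62 percentage points. The CD values lay above the LD values without overlap, although the LD libraries had more peaks (53821 to 56987, against 48156 to 51608 on CD). The means were 72.2% and 73.6% over background loci (a difference of −1.44 points), 84.0% and 84.7% over shared loci (−0.723) and 39.6% and 47.7% over LD-only loci (−8.08). At isolated loci it was 3.43 points.

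Within 1 kb of a TSS the mark was nearly universal, at 98.3 ± 0.605% on CD and 97.9% in every LD library, as it was at shared loci there (97.3% on both diets) and at background loci (95.4% and 95.8%). In all, 67.6% of the CD-only loci had a peak in all 6 libraries and 16.9% in none, near the background shares of 63.1% and 18.2%. Beyond 1 kb of a TSS these shares were 53.8% and 24.1%, and 42.7% and 31.3% at isolated loci. There they were 58.0% and 20.8% of background loci and 73.3% and 10.2% of shared loci. A peak in all 3 CD and no LD library was found at 14 loci (0.771%), where the background share was 0.443%. The opposite pattern was found at 4 loci (0.22%), where the background share was 1.02%. All 14 lay beyond 1 kb of a TSS. The 5 of them with the highest Hnf4α peaks had as nearest genes Abtb2, Foxa1, Ube2s, Gm1821 and Gm16551.

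Of these 5, the locus 15.4 kb downstream of the Abtb2 start site had Hnf4α heights of 14 and 18, and Abtb2 RNA was 12.3 ± 2.93 CPM (counts scaled to a common library total) on CD and 10.1 ± 1.48 on LD, which did not pass the test (adjusted p = 0.217). The second, at chr12:58500364-58500582, lay in an intron 147 kb from the start site of Foxa1, a pioneer factor of liver, which is beyond the 50 kb used to assign a gene, with heights of 10.8 and 18.8. Foxa1 RNA was 6.66 ± 1.92 CPM on CD and 5.06 ± 0.841 on LD (adjusted p = 0.138). The third lay 3.15 kb upstream of Ube2s, a ubiquitin-conjugating enzyme, with heights of 11.2 and 9.75 and RNA at 9.41 ± 1.03 against 8.3 ± 1.27 CPM (adjusted p = 0.271). The remaining pair lay 136 kb from Gm1821 and 144 kb from Gm16551, also beyond that limit. Gm16551 RNA was 6.56 ± 1.65 CPM on CD and 1.3 ± 0.6 on LD (adjusted p = 0.000235), whereas Gm1821 RNA was 0.713 ± 0.302 and 0.85 ± 0.0785 CPM and did not pass the test (adjusted p = 0.52).

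C/EBPα was found at a smaller share of CD-only loci than of shared or background loci, and LD-only loci had low shares too. A C/EBPα peak overlapped 22.0% and 17.5% of them in the CD libraries and 21.1% and 20.4% in the LD libraries, with means of 19.7 ± 3.19% and 20.7 ± 0.506% (SD, n = 2 mice each). The background shares were 34.1% and 28.5% on CD and 37.7% and 38.6% on LD, and the LD-only shares 19.6% and 15.5% on CD and 27.2% and 28.9% on LD. No C/EBPα peak in any library was found at 66.6% of CD-only loci, against 48.5% of the background, 39.6% of shared and 59.7% of LD-only loci, and a peak in all 4 at 9.75%, against 20.1%, 27.4% and 8.8%. The difference between diets was −1.02 points at the CD-only loci, less than the spread between the CD libraries, and turned to 1.24 without CD replicate 2. It was −6.85 points over the background, −7.54 over shared and −10.5 over LD-only loci.

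C/EBPα peaks in both CD and no LD library lay at 24 CD-only loci (1.32%), where the background share was 1.21%, a share near the background. Peaks in both LD and no CD library lay at 49 (2.7%), where it was 5.07%. At the 177 CD-only loci with a C/EBPα peak in all 4 libraries, median C/EBPα heights were 40 and 28.5 on CD and 21.5 and 25 on LD. Both CD heights exceeded both LD heights at 57.6% of them, where the background share was 46.1% of 9226 loci with 4 peaks, and 31.8% of LD-only loci.

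The 24 loci with C/EBPα on CD only included an intron of Fetub, which codes for the liver-secreted protease inhibitor fetuin-B. There the Hnf4α heights were 40.5 and 84.5 and the C/EBPα heights 63.0 and 40, and an LD Hnf4α peak of 57.5 lay 152 bp away. Fetub RNA was 261, 244, 259, 285 and 259 CPM in the CD mice and 205, 179, 192, 221 and 136 in the LD mice. The groups did not overlap, and Fetub was higher on CD (log2 fold change 0.49, SE 0.108, adjusted p = 0.00475 by edgeR). The other 4 with the highest Hnf4α peaks lay near Gfod1, Bcl2l13, Cish and 5430416N02Rik, none of which passed the test (adjusted p from 0.078 to 0.804). The Gfod1 locus had an LD Hnf4α peak of 56.5 at 17 bp. Cish, a feedback inhibitor of cytokine signalling, ranged from 1.15 to 25.6 CPM among the CD mice alone.

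**Figure D4:**
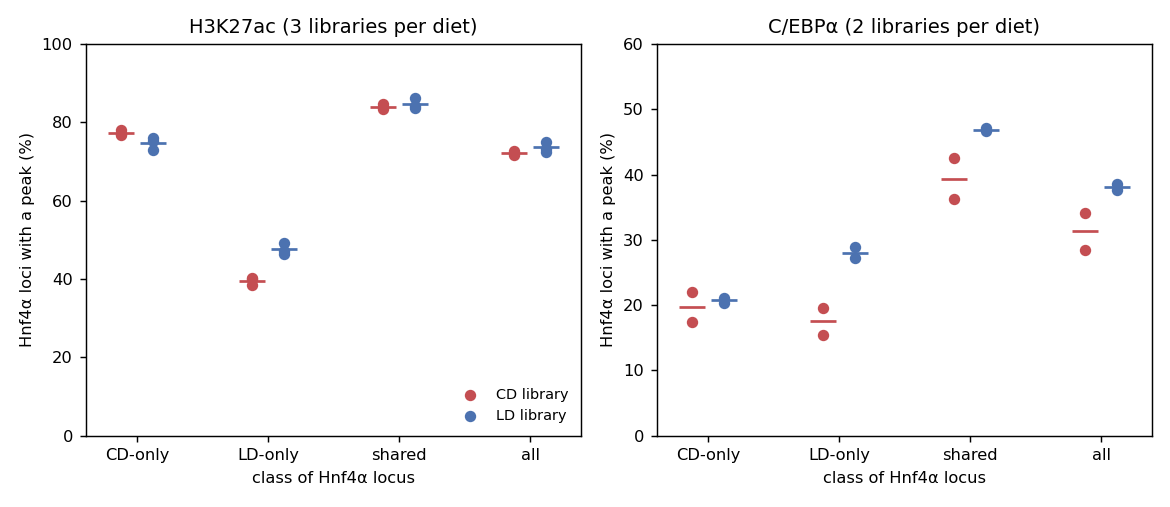
Share of Hnf4α loci of each class (y axis, %) that overlap an H3K27ac peak (left, 3 libraries per diet) or a C/EBPα peak (right, 2 per diet); points are libraries and lines their means. For H3K27ac the CD points of the CD-only class lie above the LD points, while in the LD-only class the LD points lie above.

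Promoter capture Hi-C lists contacts between a captured promoter fragment and a distal fragment. In all, 18.2% of the CD-only loci lay in a distal fragment of the CD list and 16.5% in one of the LD list, against 21.6% and 20.3% of the background. A contact in the CD list alone was found for 3.8% and in the LD list alone for 2.09%, against 4.41% and 3.09% of the background. Of the CD-only loci beyond 1 kb of a TSS, 24.7% and 22.4% lay in a distal fragment, close to the 24.4% and 23.0% of background loci there. The captured promoters that touched these loci in the CD list belonged to 411 tested genes, of which 81 (19.7%) were higher on CD in RNA and 51 (12.4%) lower, against 13.6% and 15.3% for LD-only and 15.5% and 13.1% for shared loci. Contacts of the LD list gave about the same shares at the CD-only loci, with 74 of 373 genes (19.8%) higher and 46 (12.3%) lower. Over all tested genes the shares were 11.1% and 13.8%, so that the share of lower genes was near the background. Each list pools 2 mice, so that no test between diets was possible.

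RNA was compared in 5 mice per diet, with 31707963 to 39012699 counted read pairs per library. A gene was called when its adjusted p was under 0.05 and its fold change above 1.2, and fold changes are CD over LD, so that a positive log2 value means higher on CD. A TSS lay within 50 kb of 1428 CD-only loci (78.6%), at 1354 genes, of which 1137 passed the filter on low counts. Of these, 212 (18.6%) were higher on CD, where the background over all 13494 tested genes was 11.1%, and 121 (10.6%) were lower, where it was 13.8%. The median log2 fold change was 0.07, against 0.00 over all genes. All 5 CD mice lay above all 5 LD mice for 14.7% of the genes, where the background was 8.35%, and below them for 8.09%, where it was 10.2%.

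Among genes with a TSS within 50 kb, those near other Hnf4α loci leaned less to CD. Of the genes near shared loci 15.6% were higher on CD and 13.6% lower, and of those near LD-only loci 11.7% and 16.9%. The 18.6% higher near CD-only loci came to 15.7% without Hnf4α CD replicate 1 and 14.9% without CD replicate 2, about the share near shared loci, and to 18.5% and 17.9% without LD replicate 1 or 2, settings added after seeing the data. With an RNA library left out it ran from 15.6% to 20.5%. Among genes with a CD-only locus within 1 kb of the TSS, 76 of 534 (14.2%) were higher and 37 (6.93%) lower. At that distance 13.9% of genes at background loci and 15.6% at shared loci were higher, so that the share of higher genes was near the background, and 11.7% and 12.6% were lower. Among genes 1 to 50 kb from a CD-only locus, 138 of 625 (22.1%) were higher and 87 (13.9%) lower, against 14.3% and 14.5% at background loci and 16.4% and 14.2% at shared loci, so that the share of lower genes was near the background. At isolated loci 17.8% of 754 genes were higher and 10.9% lower. Most genes had 1 CD-only locus and 63 had 2. Spop had 4, and Cdc42ep1, Fgl1, Nr5a2 and Smad5 had 3 each. A set of 246 genes, 18.2% of those near CD-only loci and 11.6% of those near LD-only loci, had both kinds nearby. Nearness does not show which gene a locus acts on.

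Among the genes called with no overlap between the diets, the gene with the largest fold change was Hsd3b5, a steroid-metabolizing enzyme of male mouse liver. It measured 429, 393, 408, 442 and 360 CPM in the CD mice and 18.4, 29.2, 1.61, 0.243 and 0.112 in the LD mice. All CD values lay close together, while the LD values spread widely and 3 were at 1.61 CPM or less. The log2 fold change was 5.34 (SE 1.21, adjusted p = 0.0126). Hsd3b5 belongs to a family of near-identical genes, among which reads may be split. Its locus, 25.1 kb upstream, was low (4.75 and 8.75) and had H3K27ac in 1 CD library and no LD library.

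Igfbp2, a carrier protein of insulin-like growth factors, had a CD-only locus 150 bp upstream of its TSS (heights 9.0 and 15.5), with an LD peak of 7.25 at 93 bp. It measured 318, 290, 286, 406 and 346 CPM on CD and 109, 149, 82.0, 63.1 and 72.4 on LD, and was higher on CD (log2 fold change 1.79, SE 0.222, adjusted p = 0.000319). Cps1, which catalyses the first step of the urea cycle, had a locus 4.91 kb upstream (15.8 and 31.5), with an LD peak of 46.2 at 924 bp, higher than either CD peak. Its RNA was 7425, 8342, 6914, 6490 and 5575 CPM on CD and 3560, 3822, 2050, 2303 and 2050 on LD (log2 fold change 1.33, SE 0.193, adjusted p = 0.000545). For both genes every CD mouse lay above every LD mouse.

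The other 5 of the 8 with the largest rises had log2 fold changes of 1.32 to 3.11. Srgap3, a GTPase-activating protein, whose TSS lay inside a locus of 17.8 and 38.2, measured 4.6 ± 1.03 CPM on CD and 0.533 ± 0.203 on LD. Abca8a, a lipid transporter, measured 202 ± 31.9 and 70.3 ± 12.4 CPM with a locus 23.5 kb downstream of its TSS. Slco2a1, a prostaglandin transporter, measured 32.7 ± 5.12 and 12.6 ± 2.56 CPM with a locus 26.4 kb upstream. The cytochrome P450 gene Cyp2c67, whose family members are alike in sequence, measured 371 ± 43.1 and 149 ± 22.8 CPM with a locus 16.7 kb upstream. Snora3, a small nucleolar RNA inside a ribosomal protein gene, measured 3.27 ± 1.12 and 1.08 ± 0.252 CPM, and its reads cannot be told apart from those of its host. None of these 5 loci had a C/EBPα peak in any library, and all had H3K27ac in all 6.

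CD-only loci also lay near genes that were lower on CD. Slc16a5, a member of the monocarboxylate transporter family, measured 4.21, 4.65, 9.94, 4.8 and 3.23 CPM on CD and 28.3, 21.4, 34.4, 38.4 and 19.7 on LD (log2 fold change −2.40, SE 0.316, adjusted p = 0.000604). Its locus 4.68 kb upstream (8.75 and 16.2) had an LD peak of 17.2 at 375 bp. Ctse, the aspartic protease cathepsin E, measured 0.542, 0.313, 0.335, 0.381 and 0.524 CPM on CD and 0.893, 1.66, 1.99, 2.09 and 1.96 on LD (−2.03, SE 0.275, adjusted p = 0.000202). Its locus 19 kb upstream (13.5 and 17.5), the window with CAAAGGTCA, had an LD peak of 29.5 at 74 bp. Both genes were lower in every CD mouse than in any LD mouse.

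Spp1, which codes for osteopontin, measured 15.4, 25.2, 14.7, 15.5 and 13.2 CPM on CD and 41.0, 50.6, 58.2, 68.6 and 114 on LD (log2 fold change −1.98, SE 0.297, adjusted p = 0.00133). Spp1 is 1 of 6 cholangiocyte markers listed here, whose summed level ran from 19 to 32.7 CPM on CD and from 46.2 to 122 on LD. That sum includes Spp1 itself, which ran from 13.2 to 25.2 CPM on CD and from 41.0 to 114 on LD. It does not show a change of the other 5. The other 5 markers did not pass the test. In whole liver, fewer cells of a type and less RNA per cell cannot be told apart, and the part of cell composition in this result was not tested. Its locus, 31.2 kb upstream (7.75 and 20.2), had H3K27ac in 2 CD and 3 LD libraries.

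The other 5 of the 8 with the largest falls were low in RNA, with log2 fold changes of −1.96 to −1.55. Hebp2, a heme-binding protein gene, measured 0.399 ± 0.191 CPM on CD and 1.58 ± 0.463 on LD. Arhgap11a, a GTPase-activating protein of dividing cells, measured 1.53 ± 0.262 and 4.81 ± 0.792 CPM, with a locus 134 bp upstream that had H3K27ac in all 6 libraries. Gtse1, expressed in the cell cycle, measured 0.454 ± 0.131 and 1.36 ± 0.384 CPM, near a locus (5.75 and 4.5) with no H3K27ac and an LD peak of 15.8 at 616 bp. Ddit4l, an inhibitor of mTOR signalling, and Camk2n2, an inhibitor of CaM kinase, measured 0.464 ± 0.227 and 0.475 ± 0.161 CPM on CD, and 1.74 ± 0.821 and 1.4 ± 0.275 on LD.

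**Figure D5:**
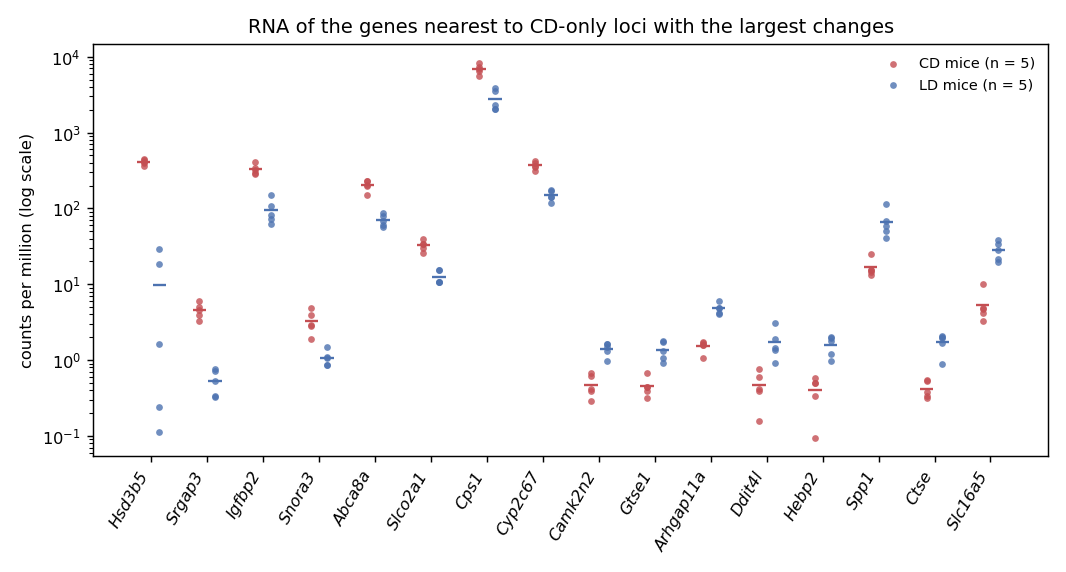
RNA level (y axis, CPM on a log scale) in each of 5 CD and 5 LD mice for the genes nearest to CD-only loci with the largest rises (left) and falls (right) on CD; points are mice and lines are means. The diets do not overlap for any gene shown, since this was part of the rule that chose them, and the LD mice of Hsd3b5 spread from 0.112 to 29.2.

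By function, genes of protein and RNA synthesis near CD-only loci were called in the CD direction where they were called. Of 15 tested ribosome and translation genes near a CD-only locus, 9 were higher on CD and 0 lower by edgeR, also by DESeq2, with 11 higher and 0 lower at an unadjusted p under 0.05. In the whole list, 67 of 157 were higher and 1 lower. The 9, named after their values were seen, were Eef1a1, Eif4b, Rpl12, Rpl13a, Rpl23, Rpl5, Rplp1, Rps10 and Rps14, with log2 fold changes of 0.29 to 0.43. Rpl12 measured 232 ± 27.4 CPM on CD and 172 ± 19.3 on LD, and Eef1a1, the elongation factor that brings aminoacyl-tRNA to ribosomes, 5884 ± 490 and 4750 ± 285. Ribosomal genes have many processed copies, among which reads may be split.

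Of 23 tested genes of RNA polymerase, splicing and RNA helicases, 8 were higher and 0 lower (DESeq2 8 and 0, unadjusted 13 and 1), among them the splicing factors Prpf6 (64.6 ± 6.04 against 43.0 ± 3.47 CPM) and Prpf8 (304 ± 34.4 against 229 ± 19.9). In that list as a whole, 35 of 243 were higher and 7 lower. Of 19 ubiquitin and proteasome genes, 5 were higher and 0 lower (DESeq2 the same, unadjusted 6 and 1), and over the list 24 and 16 of 299. Of 33 zinc finger and chromatin genes, 6 were higher and 1 lower, and over the list 93 and 41 of 545. The ribosome list and the lists of this paragraph were matched by the start of the gene symbol, so that membership follows the name. Usp6nl and Zbtb11os1, taken in by name, are among the higher ubiquitin and zinc finger genes. Of 13 genes of the respiratory chain and mitochondrial translation, 0 were called by edgeR or DESeq2 (1 higher and 1 lower unadjusted), and over the list 1 and 3 of 191. The share of these 5 lists near CD-only loci (6.06% to 9.55%) was close to the 8.43% of all tested genes. It was higher for hepatocyte transcription factors (23.8%), glucose metabolism (20.5%), sterol genes (19.2%), xenobiotic metabolism (16.5%), secreted liver proteins (15.6%) and the urea cycle and amino acid metabolism (14.3%). For lipogenesis it was 10.3%, for bile acid genes 8.7%, for fatty acid oxidation 6.25%, for the cell cycle 5.88% and for the clock 5.56%. None of these shares was tested.

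Of 10 tested transcription factor genes near CD-only loci, out of 42 in the list, 4 were higher and 1 lower. Nr5a2, the liver receptor homolog that acts in bile acid synthesis, had 3 CD-only loci within 50 kb and measured 63.3 ± 2.04 CPM on CD and 51.2 ± 2.87 on LD (log2 fold change 0.31, adjusted p = 0.0019). Xbp1, a factor of the unfolded protein response, measured 257 ± 50.7 and 179 ± 22.3 CPM (0.52, adjusted p = 0.00807). The Xbp1 locus, 28.4 kb upstream (13.5 and 27.2), had an LD peak of 12.2 at 67 bp. Prox1 (51.2 ± 13.6 and 34.9 ± 5.57 CPM, adjusted p = 0.0347) and the coactivator gene Ppargc1b (4.56 ± 1.22 and 2.96 ± 0.606 CPM, adjusted p = 0.0295) passed the test with overlapping groups, and both calls were lost when any of several libraries was left out.

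Ppara went the other way. It measured 365, 369, 396, 424 and 435 CPM on CD and 569, 438, 521, 564 and 430 on LD, and was lower on CD (−0.34, SE 0.095, adjusted p = 0.016), although its locus held the highest CD-only peaks. Onecut2, a hepatic homeobox factor with 2 CD-only loci nearby, measured 81.6 ± 21.5 and 52.7 ± 12.8 CPM and did not pass the test (adjusted p = 0.0521, and 0.00656 by DESeq2). Over the list 12 of 42 were higher and 3 lower.

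Metabolic genes near CD-only loci were called in either direction. The loci given for Acacb, Thrsp, Ldha, Gapdh, Eno1, Fdft1, Insig1, Cbs, Fgb, F10, Apob and Rbp4 each had an LD peak within 1 kb. Of 3 lipogenic genes near a CD-only locus, 2 were higher on CD. Acacb, the acetyl-CoA carboxylase of mitochondria, measured 306, 295, 195, 258 and 307 CPM on CD and 132, 117, 166, 133 and 144 on LD (log2 fold change 0.98, SE 0.126, adjusted p = 0.000173). Elovl6, a fatty acid elongase, measured 544, 496, 477, 398 and 395 on CD and 240, 228, 305, 214 and 290 on LD (0.85, SE 0.118, adjusted p = 0.000247), with an intronic locus 19.3 kb from its TSS. The lipogenic regulator Thrsp measured 957 ± 328 and 854 ± 227 CPM (adjusted p = 0.684). Over the list, 13 of 29 were higher and 2 lower.

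Of 3 genes of fatty acid oxidation, 2 were lower on CD. Cpt1a measured 424, 422, 490, 549 and 506 CPM on CD and 711, 626, 772, 846 and 644 on LD (−0.59, SE 0.102, adjusted p = 0.001). Hadh, a dehydrogenase of beta-oxidation, measured 328 ± 33.3 and 525 ± 63.9 CPM (−0.68, adjusted p = 0.000302). Both diets were apart in every mouse for both genes. Cyp4a12a, a fatty acid hydroxylase of male liver with close paralogs, was higher on CD (107 ± 17.4 against 45.2 ± 16.4 CPM, adjusted p = 0.00325). Over the list 26 of 48 were lower and 2 higher.

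Of 9 genes of glucose metabolism, 2 were lower on CD and 0 higher (DESeq2 the same, 1 higher unadjusted), namely Ldha, a lactate dehydrogenase (721 ± 37.5 against 1046 ± 86.1 CPM, adjusted p = 0.000279), and Gapdh (489 ± 16.1 against 625 ± 89.4, adjusted p = 0.0128), which has many pseudogenes. Over the list 6 of 44 were higher and 9 lower. Pck1, the entry enzyme of gluconeogenesis, measured 1508 ± 463 and 1077 ± 324 CPM (adjusted p = 0.204). The row named Eno1 measured 0.483 ± 0.16 and 0.597 ± 0.188 CPM, and a second row of the table, Eno1b, overlaps it on the same strand, so that reads of both may be missing.

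Of 5 sterol genes, 2 were lower on CD and 0 higher (DESeq2 3 and 0, unadjusted 3 and 0). They were Msmo1 (187 ± 32.1 against 327 ± 59.7 CPM, adjusted p = 0.00132) and Fdft1 (152 ± 30.3 against 219 ± 18.5, adjusted p = 0.0062), both enzymes of cholesterol synthesis. Insig1, a regulator of sterol synthesis, measured 637 ± 136 and 696 ± 58.0 CPM and did not pass the test (adjusted p = 0.483). Over the list 2 of 26 were higher and 6 lower. Of 2 bile acid genes, Cyp27a1, a sterol hydroxylase, was higher (492 ± 25.8 against 352 ± 58.4 CPM, adjusted p = 0.00394), and Baat measured 341 ± 32.3 and 332 ± 16.3 (adjusted p = 0.754). Over that list 6 of 23 were higher and 4 lower.

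Of 6 genes of the urea cycle and amino acid metabolism, 4 were higher on CD and 0 lower (DESeq2 4 and 0, unadjusted 5 and 0). Beside Cps1 they were Got1, an aspartate aminotransferase (268 ± 36.4 against 164 ± 50.6 CPM, adjusted p = 0.0181), Cbs, the first enzyme of transsulfuration (421 ± 28.3 against 333 ± 33.9, adjusted p = 0.00787), and Slc25a15, the ornithine carrier of mitochondria (350 ± 33.5 against 290 ± 30.8, adjusted p = 0.0349), whose call was lost when any of 7 libraries was left out. Over the list 16 of 42 were higher and 3 lower. Of 5 genes for secreted liver proteins, 2 were higher and 0 lower (DESeq2 and unadjusted the same), against 10 and 3 of 32 in the list. Fgb, a fibrinogen chain, measured 5219, 4969, 4213, 5172 and 4371 CPM on CD and 2908, 2967, 2703, 3082 and 2446 on LD (log2 fold change 0.76, SE 0.091, adjusted p = 8.43e-05).

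F10, coagulation factor X, with a locus 558 bp from its TSS and C/EBPα in all 4 libraries, measured 415 ± 23.0 and 302 ± 26.6 CPM (adjusted p = 0.000813). Apob and Rbp4, which code for carriers of lipid and of retinol, measured 15188 ± 2425 and 1249 ± 101 CPM on CD, and 12961 ± 1777 and 1120 ± 106 on LD, and did not pass the test (adjusted p = 0.187 and 0.189). Of 20 genes of xenobiotic metabolism, 5 were higher and 5 lower, against 24 and 32 of 121 in the list, including Cyp2d13 (101 ± 9.96 against 61.0 ± 11.2 CPM, adjusted p = 0.000579). This list was matched by the start of the gene symbol. Cyp27a1, already counted among the bile acid genes, is therefore among the 5 higher here too. Of 2 cell cycle genes, Mki67 (5.77 ± 1.19 against 14.9 ± 4.04 CPM) and Plk1 (0.271 ± 0.0809 against 0.839 ± 0.232) were both lower on CD (adjusted p = 0.000399 and 0.00157), as were 28 of 34 in the list. In the list of clock genes, 3 of 18 were higher.

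Among the genes of the other highest loci, Uox measured 3350 ± 420 and 2711 ± 331 CPM and was called higher on CD (0.31, adjusted p = 0.0421). That call was lost in 7 of the 10 fits with a library left out (adjusted p 0.0651 to 0.108). Dbi (1051 ± 152 and 1068 ± 35.3 CPM), Tmem19 (134 ± 11.1 and 145 ± 14), Ces1d (615 ± 74.2 and 732 ± 106) and Map2k6 (5.59 ± 1.3 and 5.48 ± 1.65) did not pass the test. Fam50b, with 0.0559 to 0.216 CPM, was under the filter. Of the 8 genes at isolated high loci, Cdpf1 was higher on CD (5.35 ± 0.874 against 3.7 ± 0.382 CPM, adjusted p = 0.00992) and Cpt1a, with the values given among the genes of fatty acid oxidation, was lower (−0.59, adjusted p = 0.001). Onecut2, 5033403H07Rik, Sec14l2, Cxcl12 and Pim3 did not pass the test (adjusted p from 0.0521 to 0.842), and Mir2139 had no counts.

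The genes of the factors themselves did not pass both limits of the call. Hnf4a RNA was 453, 507, 476, 475 and 480 CPM on CD and 394, 372, 377, 459 and 397 on LD, a log2 fold change of 0.26 (SE 0.073, adjusted p = 0.0176), which is under the fold limit of 1.2 and left an overlap between the diets. Cebpa RNA was 384 ± 23.5 and 321 ± 26.8 CPM, also a log2 fold change of 0.26 (adjusted p = 0.0202), with no overlap. The 10 hepatocyte markers summed to 114582 to 126455 CPM on CD and 100068 to 118032 on LD, and 4 were called higher.

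Marker lists of other liver cells stood lower than the hepatocyte list on both diets. Summed levels ran from 354 to 690 CPM on CD and 364 to 1097 on LD for Kupffer cells (10 markers, 2 lower on CD), from 25 to 32.3 and 31.1 to 72.1 for lymphocytes (9, 2 lower and 1 higher), from 511 to 635 and 467 to 640 for endothelial cells (8, 1 lower) and from 595 to 728 and 704 to 1015 for stellate cells (8, 3 lower). Adipocyte markers summed to 5.81 to 10.3 CPM on CD and 27.6 to 60.7 on LD, with Lep and Plin1 at 0 counts in every library and 2 of 2 tested lower. The part of cell composition in the changes of genes near CD-only loci was not tested.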

How the data were processed

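ChIP-seq, RNA-seq and promoter capture Hi-C of mouse liver were used as deposited. The submitters' processing notes name Bowtie 0.12.8, Picard 1.110, HOMER, SICER, STAR 2.5 and featureCounts 1.5.0-p1, with the mm9 build. The authors called Hnf4α and C/EBPα peaks with HOMER against input, per library, and the deposited heights are a signal in tags scaled to 10000000 tags, with a fold (ratio) over input beside them. H3K27ac peaks were called by the authors with SICER per library, and only the deposited positions were used. The authors pooled promoter capture Hi-C libraries by diet, and deposited CHiCAGO scores with a score of at least 5. RNA counts per gene were made by the authors with featureCounts and deposited raw. Normalised values and columns of the authors' own comparisons, as well as the Hi-C domain lists, were not used here.

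Hnf4α peaks that shared at least 1 bp were merged. A mark was present at a locus when a peak overlapped it by at least 1 bp. The nearest gene was the nearest TSS of the RefSeq rows of the counts table, up to 50 kb, and GENCODE M1 gave the annotation. Sequence was read from the mm9 genome, and loci on sequences outside the genome used here were left out of composition. Counts were tested with edgeR 4.0.16 (robust quasi-likelihood, TMM, filterByExpr, Benjamini-Hochberg over 13494 genes) in R 4.3.3, with 5 mice per diet and no covariate. CPM are means ± SD over mice. On simulated counts from these libraries, 200 of 200 genes changed by a fold of 2 were recovered, with 8 false calls among 13432 genes. Only that fold was simulated. The recovery of smaller changes, such as those called for Nr5a2 and Eif4b, was not tested. Wilson 95% intervals were computed for the shares by distance to a TSS only, and cover counting error only.

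Genes and loci were named by rule: the 8 highest loci, the 8 largest rises and the 8 largest falls among called genes with no overlap between diets and at least 1 CPM on a diet, at most 4 genes of each short pathway list, and at most 5 loci with a mark on CD only. The 8 isolated loci and the called genes of the longer lists were added after values were seen. The longer lists were matched by the start of the gene symbol. The members, the 16 pathway lists and the 7 marker lists were chosen with earlier results of these data known. Alternatives were other merging, height and distance limits, each library left out, DESeq2 1.42.0, its size factors, no filter, and a replicate block. Some named genes and sequence windows are not reported here.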

Additional observations from a re-analysis of the deposited data

Results flagged for a closer look

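Among the named genes, 136 groups of 5 mice were searched for a mouse far from the other 4, and 5 were found, where chance gives about 1 in 20 groups. Uox measured 3282 CPM in LD replicate 2, against 2490 to 2718 in the other LD mice. Slc16a5 measured 9.94 CPM in CD replicate 3, against 3.23 to 4.8 in the other CD mice, and remained below every LD mouse. Spp1 measured 25.2 CPM in CD replicate 2, against 13.2 to 15.5, also below every LD mouse. Arhgap11a measured 1.08 CPM in CD replicate 5, against 1.56 to 1.71. Pim3, beside an isolated locus, measured 71.7 CPM in CD replicate 4, against 34.8 to 40.4.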

How the results depend on the processing

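The number of CD-only loci depended on the lists. It was 1816 as reported, 992 with heights of at least 10, and 3358 to 9560 with an Hnf4α library left out, which loosens the rule. It was 1253 without loci that had an LD peak within 1 kb, a setting chosen after seeing the data. The share within 1 kb of a TSS was 39.5% with heights of at least 10, 22.0% to 27.8% with a library left out and 28.3% for isolated loci. It was 27.6% within 500 bp, 41.4% within 5 kb and 37.1% by GENCODE, which was also added later. The H3K27ac difference was 4.17 points with the same number of highest peaks per list and 1.74 to 3.26 points with a library left out. The C/EBPα difference ran from −3.28 to 1.24 points with a library left out, and turned positive without CD replicate 2. With a TSS within 1 kb, 76 genes were higher and 37 lower, and at isolated loci 134 were higher. Replicate numbers did not pair the mice: correlations of deviations ran from −0.13 to 0.227, 0 LD libraries correlated best with the CD library of their own number, and a replicate block gave 198 higher and 120 lower. DESeq2 gave 239 and 133, and leaving out an RNA library 178 to 235 and 108 to 122.

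Of 68 named genes tested, 58 kept their call under all 14 alternatives of the RNA fit and 10 did not, of which 9 are given. Calls were lost for Uox without CD replicate 1, 2 or 4 or LD replicate 1, 3, 4 or 5 (adjusted p 0.0651 to 0.108), for Ppargc1b without CD replicate 3, 4 or 5 or LD replicate 2 or 3 (0.0539 to 0.0831), for Prox1 without CD replicate 2 or 3 or LD replicate 2, 3 or 5 (0.0613 to 0.0791), with no filter (0.0633) and with the block (0.0861), and for Slc25a15 without CD replicate 1, 2, 3 or 5 or LD replicate 3, 4 or 5 (0.0517 to 0.0936) and with the block (0.0552). Calls were gained for Ces1d without LD replicate 5 (0.0308), Onecut2 by DESeq2 (0.00656) and without CD replicate 1 (0.0086) or LD replicate 1 (0.0295), Pck1 without CD replicate 5 (0.0455), Abtb2 without CD replicate 4 (0.0305) and Foxa1 without CD replicate 1 (0.0414). Causes were not tested. With 2 Hnf4α libraries per diet, loci near the calling limit cannot be told apart from loci missed in a library.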
